A study of Mus musculus with 12 samples.

Results

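Polysome loading was examined in the control genotype of a mouse round spermatid study, in 6 of its 12 libraries. All 6 came from flow-sorted spermatids of 8-week-old Igf2bp3+/- males, which carried 1 intact copy of Igf2bp3 and 1 copy with a Cas9-made frameshift, so the control is heterozygous although its columns are named WT. Cells were kept in cycloheximide, which holds ribosomes on the mRNA. A small part of the lysate served as input for RNA-seq (3 libraries), and mRNA from gradient fractions with 4 or more ribosomes, the ribosome nascent-chain complexes, was sequenced separately (RNC-seq, 3 libraries). The study describes poly(A) selection of the RNAs before library construction. By the study's methods the spermatids were sorted mouse by mouse, but the labels do not tie an input to a polysome library of the same number. The Igf2bp3-/- libraries (3 and 3, from sorted spermatids of the same age and with the same treatment, with no intact copy) served only for comparison. Genes entered when their mean FPKM (fragment counts scaled by transcript length and library total) was above 0.1 in both assays, which left 17942 of 28643 genes.

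Loading here is the difference in log2(FPKM + 0.1) between the means of the RNC-seq and the RNA-seq libraries, so that a value of 1 is close to a doubling in polysomes relative to the input. FPKM is relative to the library's own total, and loading is therefore a gene's position among other mRNAs and not the fraction of its molecules on ribosomes. Each gene was tested with limma, two-sided, with Benjamini-Hochberg adjustment over all genes tested and a limit of 0.05.

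Round spermatids are haploid cells that soon stop transcribing, because transition proteins and then protamines replace their histones. Many mRNAs needed late, such as those of the protamines and of the sperm tail, are made early and are known to be stored for days in ribonucleoprotein particles before they enter polysomes. Genes of the ribosome, the respiratory chain and the growing flagellum and acrosome are used at the same time.

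Markers of round spermatids were high in the 6 libraries. The summed FPKM of 7 of 7 such markers was 700 to 880 in RNA-seq and 1066 to 1464 in RNC-seq, and that of 7 of 7 elongating spermatid markers (protamines, transition proteins, Odf1, Smcp and Akap4) was 8938 to 11401 and 11970 to 14423. Somatic markers were low. Sums were 14.5 to 21.5 and 6.12 to 13.9 for the 5 of 7 Leydig markers that passed the filter, 2.74 to 3.63 and 1.16 to 1.39 for 1 of 8 Sertoli markers, 1.71 to 2.17 and 0.653 to 1.5 for 4 of 6 macrophage markers, 1.28 to 1.59 and 0.743 to 1.10 for 2 of 5 peritubular markers, and 5.12 to 5.66 and 10.6 to 14.1 for 3 of 3 erythroid markers. The 7 spermatocyte markers summed to 838 to 896 and 977 to 1120. Of these sums Tbpl1, also listed below among spermatid transcription regulators, held 361 to 407 and 547 to 608. RNA-seq libraries held 24036 to 24300 genes above 0 and RNC-seq libraries 21490 to 21935, at relative depths of 0.380 to 0.550 of the deepest library of the series. A single gene annotated as rRNA, CT010467.1, took 9.22% to 13.3% of the summed FPKM in RNA-seq and 15.9% to 19.4% in RNC-seq, and the part of these differences in the results below was not tested. In such bulk samples, fewer cells of a type and less RNA per cell cannot be told apart.

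Between the assays, 3331 genes were higher in RNC-seq (18.6% of those tested) and 4503 were lower (25.1%), by limma at an adjusted p under 0.05. Beyond a 2-fold change lay 1578 of the higher and 2662 of the lower genes. The median of all genes was −0.09, and the median SD between replicates was 0.27 on the log2 scale. The split of calls moved with scaling. Higher genes were 42.5% of the calls as deposited, 55.9% (4630 higher, 3655 lower) with libraries centred on their medians, 51.2% after quantile normalization and 29.4% (2467 higher, 5911 lower) when FPKM was rescaled without CT010467.1. These scalings moved the median of all genes by 0.16, 0.13 and −0.19, so the classes below are read against the median of all genes as well as against 0. Among 929 called genes of the class lists, 1 (Tnp2) changed sign under any of the 3 scalings and 183 lost the call under at least 1.

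Of the 10 protein-coding mRNAs farthest below the input, 6 had very long coding sequences. Fsip2 (chromosome 2, 82943634 to 83008937, GRCm38), which encodes a fibrous sheath interacting protein with a coding sequence of 20985 nt, had 57.5, 61.3 and 58.3 FPKM in RNA-seq and 3.45, 2.45 and 5.45 in RNC-seq (log2 −4.0, SE 0.25, adjusted p = 4.12e-05). Zan, for the sperm surface protein zonadhesin (16260 nt), had 15.1, 17.3 and 19.0 FPKM in the input and 1.07, 1.29 and 1.69 in polysomes (log2 −3.59). Dnah17 (chromosome 11, 118021723 to 118130634), an outer arm dynein heavy chain of the sperm axoneme, had 79.3, 95.4 and 113 FPKM against 7.46, 9.76 and 12.7 (log2 −3.27, SE 0.21, adjusted p = 4.19e-05). In these 3 genes the highest polysome value lay far below the lowest input value. Gm7173 (−3.79), Lrrc37a (−3.42) and Gm11639 (−3.26) also belonged here, with coding sequences of 9396 to 17424 nt. The remaining 4 of the 10 largest decreases, Gm20605 (−5.32), Gm31371 (−4.26), Etfb (−3.46) and 4930467E23Rik (−3.26), share exons or near-identical sequence with other genes and are uncertain.

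At the other end, 7 of the 10 largest increases among protein-coding genes were encoded by the mitochondrial genome. Ost4, a very small subunit of the oligosaccharyltransferase with a coding sequence of 111 nt, part of which lies over Agbl5 on the opposite strand, had 30.3, 28.7 and 16.5 FPKM in RNA-seq and 145, 116 and 99.4 in RNC-seq (log2 2.28, SE 0.24, adjusted p = 0.000199). Defb14, a defensin with a coding sequence of 201 nt, had 8.43, 10.9 and 6.75 FPKM against 52.6, 32.3 and 36.1 (log2 2.2, SE 0.23, adjusted p = 0.000182). The largest value, 2.78 for the small gene Gm5148, partly overlaps a ribosomal protein pseudogene on the opposite strand and rests on 5.41, 1.11 and 0.950 FPKM in RNA-seq against 12.7 to 13.6 in RNC-seq.

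Loading fell steadily with the length of the coding sequence. Over 12475 protein-coding genes split into 10 bins of equal number by their longest annotated coding sequence, the median loading was 0.61 in the shortest bin (66 to 498 nt), 0.01 in the fourth (894 to 1092 nt) and −1.22 in the longest (3414 to 25434 nt). In the shortest bin 48.9% of genes were higher in RNC-seq and 5.45% lower, and in the longest 2.16% were higher and 74.1% lower. Across these genes, which all share the same 6 libraries, the Spearman coefficient of loading with coding length was −0.55. With each RNC-seq library set against the mean input, the gap between the shortest and the longest bin was 2.17, 1.71 and 1.63 in replicates 1, 2 and 3. The medians fell from each bin to the next.

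**Figure D1:**
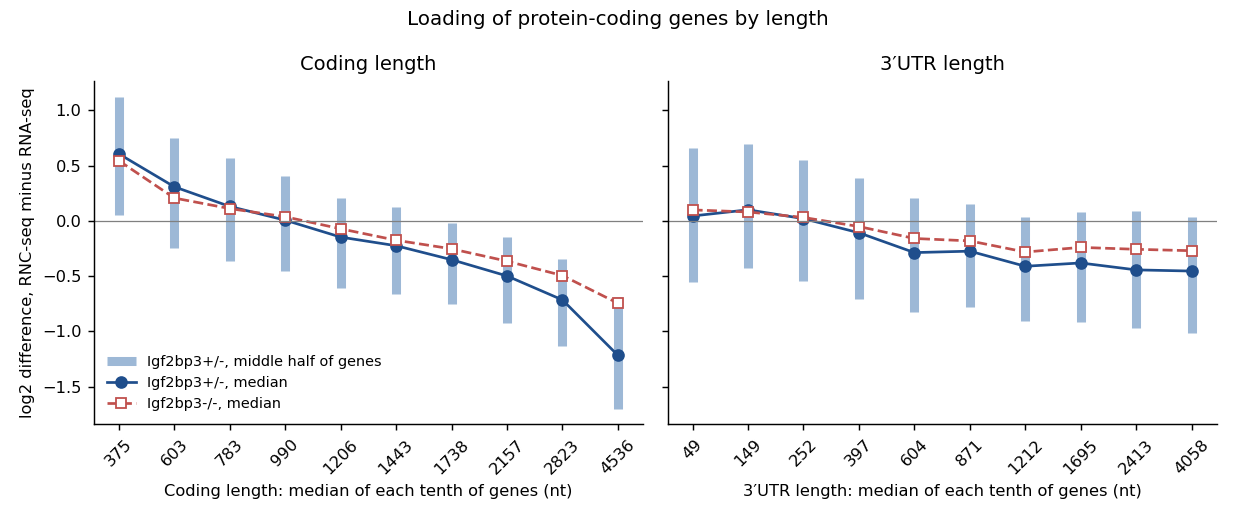
Loading (log2 difference, RNC-seq minus RNA-seq) of 12475 protein-coding genes in 10 bins by coding length (left) and 3′UTR length (right). Filled points are medians in Igf2bp3+/-, bars the interquartile range of the genes, and open squares the medians of the same genes in Igf2bp3-/-; the Igf2bp3+/- medians run from 0.61 to −1.22 over coding length and from 0.04 to −0.45 over 3′UTR length.

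Other features of the transcript went with loading less closely. The Spearman coefficient was −0.51 for the whole transcript, −0.42 for the number of exons, −0.23 for the 3′UTR and −0.13 for the 5′UTR, and −0.08 for GC content and 0.06 for the RNA-seq level. The spread with 3′UTR length was widest where the coding sequence was short. For coding sequences of up to 681 nt, the median was 0.75 with a 3′UTR of up to 195 nt (766 genes) and 0.16 with one of 2005 nt or more (328 genes). Between 1575 and 2424 nt the same pair was −0.28 and −0.52, and from 2427 nt on the medians of the 5 bins of 3′UTR length stayed between −0.84 and −0.98. A length here is that of an annotated transcript, which need not be the isoform that a spermatid makes. Among genes with a single annotated transcript, the gap between the shortest and longest bin of coding length was 1.41, compared with 1.82 over all of these genes, but their bins were drawn anew (shortest up to 342 nt, longest from 2184 nt) and span other lengths.

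RNAs with no annotated coding sequence followed transcript length too. Median loading of lincRNAs was 0.58 up to 500 nt (262 genes), 0.39 between 1000 and 1500 nt (247 genes) and −0.04 between 3000 and 5000 nt (84 genes). Between the same bins antisense RNAs went from 0.54 to −0.22 and protein-coding genes from 0.91 to −0.52. Processed pseudogenes went from 0.72 up to 500 nt to −0.53 between 2000 and 3000 nt (28 genes), where protein-coding genes were at −0.24. Below 1000 nt, protein-coding mRNAs had the highest medians of the 4 types, and between 1000 and 5000 nt lincRNAs did.

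**Figure D2:**
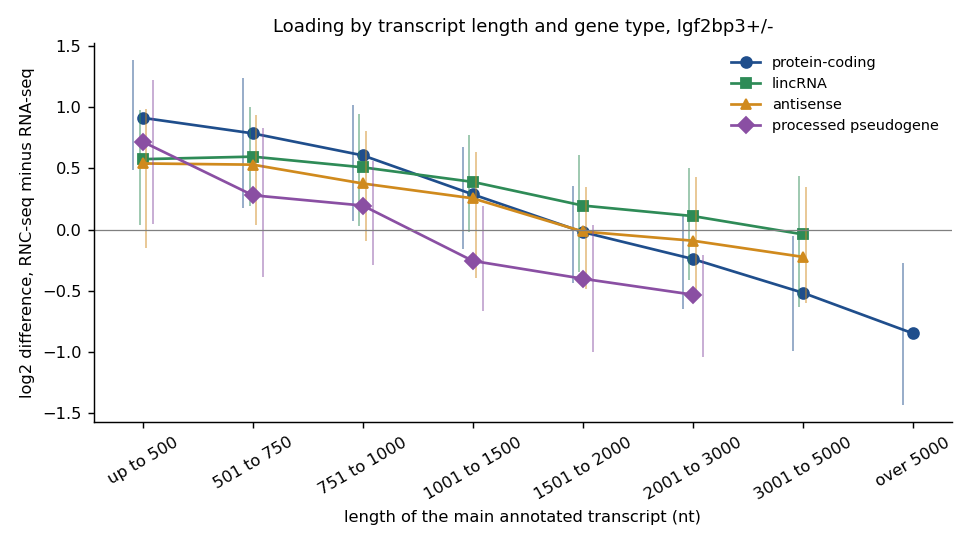
Loading against the length of the main annotated transcript for protein-coding genes, lincRNAs, antisense RNAs and processed pseudogenes in Igf2bp3+/-. Points are medians and thin lines the interquartile range of genes, for bins with 20 or more genes; the medians of all 4 types are lower in long than in short bins, and the fall is steepest in processed pseudogenes and protein-coding genes.

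The mRNAs of the ribosome stood high in polysomes as a class. Of 79 cytosolic ribosomal protein genes, 73 were higher in RNC-seq and 0 lower, against 18.6% and 25.1% of all genes, with a median of 1.19 (1.28 above that of all genes). Their share of the summed FPKM without CT010467.1 was 1.43%, 1.45% and 1.19% in RNA-seq and 2.78%, 2.72% and 2.49% in RNC-seq. Rps14, of the small subunit, had 166, 184 and 134 FPKM in the input and 696, 601 and 589 in polysomes (log2 1.97, SE 0.14, adjusted p = 5.48e-05), and Rpl34, of the large subunit, 91.1, 84.3 and 64.9 against 356, 272 and 254 (log2 1.88). Rpl4 (0.20), Rpl10 (0.30), Rpl36 (0.63), Rpl36a (−0.32), Rpl39 (−0.54) and Rps4x (−0.57) did not pass the test. Part of the 73 higher genes lost the call when rescaled without CT010467.1 (log2 0.18 to 0.35). Near-identical copies exist for 51 of the 79 genes, among them Rps14 and Rpl34, and how their reads were divided is not known.

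Ribosomal protein paralogs, some of which male germ cells use in place of silenced X-linked genes, were high too. All 6 measured paralogs were higher in RNC-seq, with a median of 1.27. Rpl39l, a germline paralog of the exit tunnel protein Rpl39, had 237, 256 and 190 FPKM in RNA-seq and 1089, 747 and 819 in RNC-seq (log2 1.95, SE 0.17, adjusted p = 0.000101). Rps27l (1.79), Rpl22l1 (1.31), Rps4l (1.22), Rpl10l (0.95) and Rpl7l1 (0.61) followed, the last of which lost its call when rescaled without CT010467.1 (0.39). In each of these 6 genes the lowest polysome value lay above the highest input value.

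Nuclear genes of the respiratory chain and ATP synthase behaved like the ribosome. Of 81 measured, 62 were higher and 2 lower (median 1.14), and their share of the summed FPKM was 1.44% to 1.72% in the input and 2.79% to 3.10% in polysomes. Ndufc2, a small subunit of complex I, had 16.1, 16.3 and 11.4 FPKM against 65.3, 58.8 and 57.2 (log2 2.06, SE 0.16, adjusted p = 6.69e-05), and Cox7c, of cytochrome c oxidase, had 145, 151 and 93.5 against 555, 436 and 399 (log2 1.85). The 2 lower members were among the large catalytic subunits, Sdha of succinate dehydrogenase (−0.62, adjusted p = 0.00844) and Atp5a1 of ATP synthase (−0.41, adjusted p = 0.0263, which lost the call under at least 1 scaling). Mitochondrial ribosomal proteins were higher in 49 of 78 and lower in 3 (median 0.66), led by Mrps33 (2.06), Mrpl33 (1.97) and Mrps14 (1.93). Mrps26 (−1.12), Mrps2 (−0.82) and Mrps6 (−0.45) were the 3 lower ones, of which Mrps6 did not pass with centred libraries or after quantile normalization. When rescaled without CT010467.1, part of the 62 higher respiratory genes and part of the 49 higher mitochondrial ribosomal protein genes lost the call.

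Transcripts of the mitochondrial genome, which are read by the organelle's own ribosomes, had a class median of 2.2, above that of the other lists here, with 10 of 13 protein-coding genes higher and 0 lower. Without RNA-seq replicate 3 this median was 1.42. mt-Co1, a core subunit of cytochrome c oxidase, had 117, 106 and 87.7 FPKM in RNA-seq and 756, 343 and 657 in RNC-seq (log2 2.43, SE 0.27, adjusted p = 0.000253). mt-Cytb (2.34) and mt-Nd1 (2.2) had the same order of libraries, with RNC-seq replicate 2 the lowest of the 3. The large mitochondrial rRNA mt-Rnr2 had 453, 489 and 403 FPKM against 7154, 3128 and 6797 (log2 3.58, SE 0.29, adjusted p = 6.90e-05). mt-Nd2 was at 0 in RNC-seq replicate 1 and at 3.52 and 6.65 FPKM in the other two, against 2.24 to 3.86 in RNA-seq, and did not pass. Near-identical nuclear copies exist for 8 of the 13 genes.

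**Figure D3:**
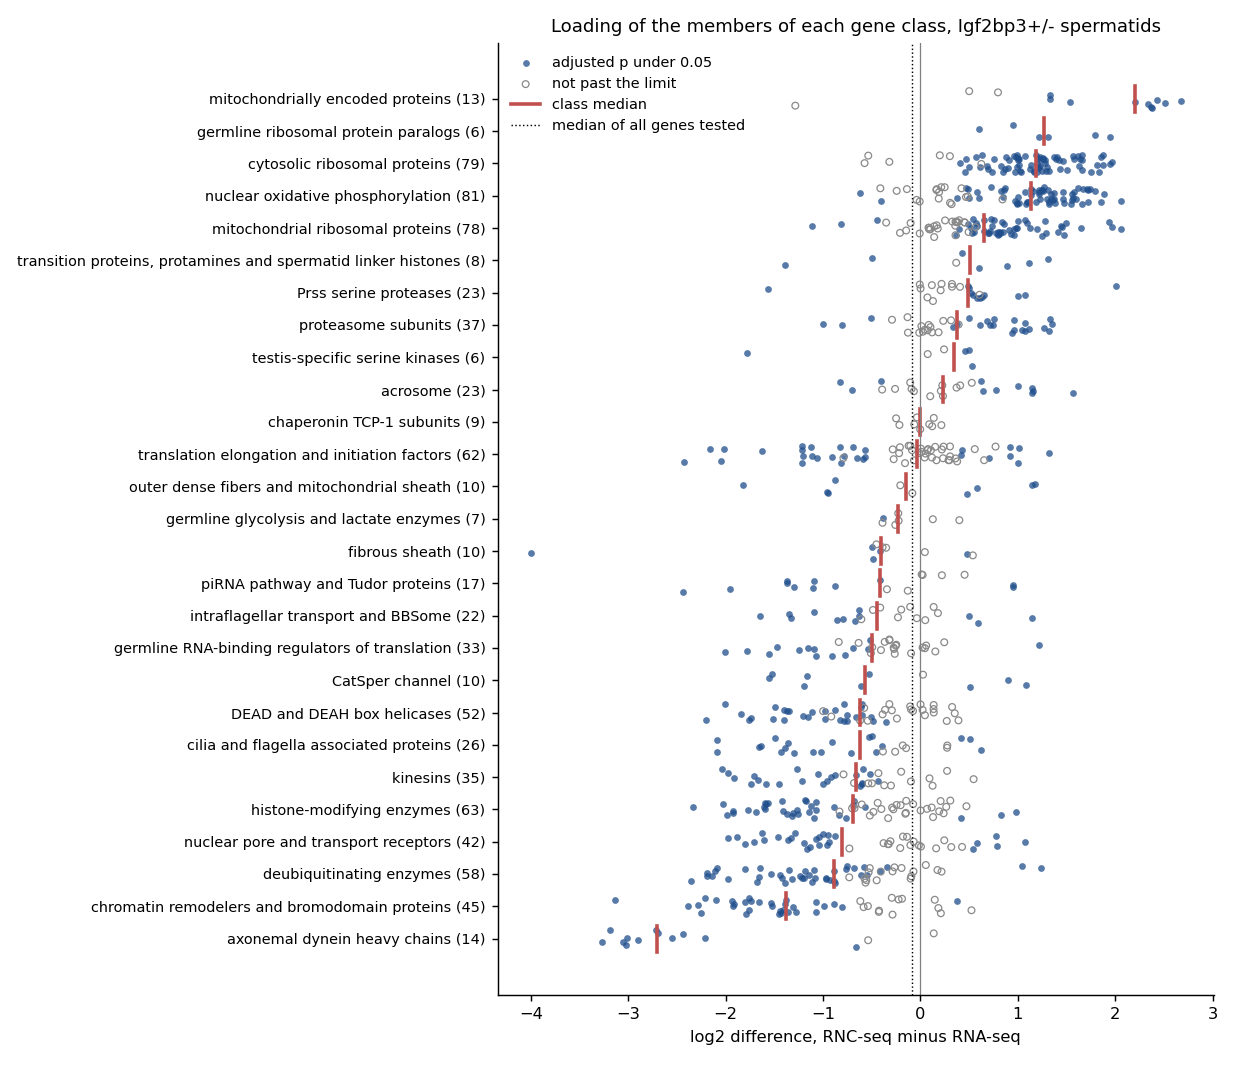
Loading of the members of 27 gene classes in Igf2bp3+/-, with the number of measured genes in brackets. Filled points passed the test, open ones did not, and red lines are class medians, which run from 2.2 for mitochondrially encoded proteins to −2.71 for axonemal dynein heavy chains; the dotted line is the median of all genes tested, −0.09.

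Proteasome subunits were higher in 19 of 37 and lower in 3 (median 0.37), and part of the 19 lost the call when rescaled without CT010467.1. Psmb6, of the catalytic core, had 166, 166 and 136 FPKM against 435, 371 and 358 (log2 1.32), whereas Psmd1 (−1.0) and Psmd2 (−0.81), the largest scaffold subunits of the regulatory particle, were lower. Heat-shock proteins and J-domain chaperones were lower in 30 of 70 (42.9%, against 25.1% of all genes) and higher in 12 (17.1%, near the 18.6% of all genes). Their median was −0.42, from Dnajc21 (−2.28) to Dnajc24 (1.36). The 9 subunits of the chaperonin TCP-1 all lay between −0.25 and 0.22 and none passed the test, with a median of 0.00 that became 0.16 with centred libraries. Translation factors were higher in 8 of 62 and lower in 21, with a median of −0.04 that turned positive with centred libraries (0.12) and quantile normalization (0.01). Eif5b (−2.43), Eif3a (−2.16) and Eif4g1 (−2.05), with coding sequences of 3648 to 4800 nt, were the lowest. The highest of the list were Eef1akmt1 (1.32), for a methyltransferase of an elongation factor and not a factor itself, Eef1b2 (1.02) and Eif3m (1.00).

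The genes that package the spermatid nucleus did not move together. Of 8 measured, 5 were higher, 2 lower and 1 did not pass, against 18.6% and 25.1% of all genes, with a median of 0.51 that was 0.03 after quantile normalization and −0.10 once the median of each gene's coding-length bin was taken off. Tnp1 (chromosome 1, 73015074 to 73015909), the first transition protein, had 1317, 1345 and 771 FPKM in RNA-seq and 2797, 2846 and 2598 in RNC-seq (log2 1.31, SE 0.21, adjusted p = 0.00130). Prm1 (chromosome 16, 10796326 to 10805839), a protamine, had 2934, 3010 and 2088 FPKM against 4403, 4341 and 3360 (log2 0.60, SE 0.18, adjusted p = 0.0249). Its neighbour Prm2 (chromosome 16, 10791380 to 10796134), the other protamine, went the other way with 3252, 3218 and 2657 FPKM in the input and 2179, 2331 and 1966 in polysomes (log2 −0.49, SE 0.13, adjusted p = 0.0163). For all 3 genes the assays did not overlap, Tnp1 and Prm1 being higher and Prm2 lower in polysomes.

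Tnp2, the second transition protein, had 2794, 2817 and 2525 FPKM against 3268, 4375 and 3347 (log2 0.42, SE 0.15, adjusted p = 0.0427), a call that was lost in each fit that left out 1 library except that without RNC-seq replicate 1 (0.29 to 0.48), when rescaled without CT010467.1 (0.20) and after quantile normalization, where its sign turned (−0.04). Prm3 had 392, 371 and 209 FPKM against 405, 444 and 362 (log2 0.37, adjusted p = 0.224). The spermatid linker histones split: Hils1 rose from 459, 468 and 416 FPKM to 935, 738 and 828 (log2 0.89, SE 0.13, adjusted p = 0.000722), and H1fnt fell from 557, 607 and 575 to 193, 256 and 218 (log2 −1.39, SE 0.13, adjusted p = 0.000122). Hist1h1t, the testis linker histone of spermatocytes, was at low levels, with 0.754 to 1.14 FPKM in RNA-seq and 1.81 to 2.28 in RNC-seq. It was 1 of the 5 higher members, by more than 2-fold. The call of Prm1 was lost under quantile normalization (0.04), rescaling (0.38), and without RNA-seq replicate 3 (0.43), RNC-seq replicate 1 (0.53) or RNC-seq replicate 2 (0.54). That of Prm2 was lost with centred libraries (−0.33) and without RNA-seq replicate 1 (−0.44), RNA-seq replicate 2 (−0.45) or RNC-seq replicate 3 (−0.43).

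**Figure D4:**
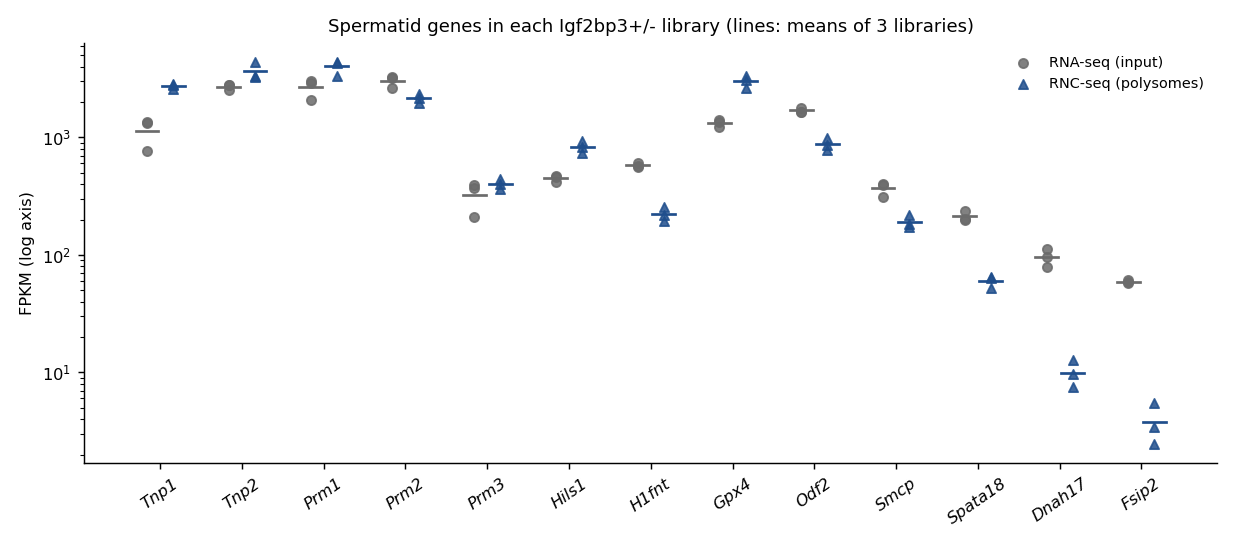
FPKM on a log axis of 13 spermatid genes in each of the 3 RNA-seq (circles) and 3 RNC-seq (triangles) libraries of Igf2bp3+/-, with lines at the means. Tnp1, Hils1 and Gpx4 lie higher in polysomes and H1fnt, Odf2, Smcp, Spata18, Dnah17 and Fsip2 lower, each with no overlap between the assays.

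Genes of the outer dense fibers and the mitochondrial sheath of the sperm midpiece gave both directions, 4 higher and 4 lower of 10, with a median of −0.14 that became 0.01 with centred libraries. Gpx4, the selenoprotein peroxidase that hardens the sheath, had 1347, 1407 and 1231 FPKM in the input and 3311, 3099 and 2611 in polysomes (log2 1.17, SE 0.13, adjusted p = 0.000256); 2 near-identical copies exist. Odf2, a main protein of the outer dense fibers, had 1642, 1660 and 1794 FPKM against 786, 869 and 980 (log2 −0.96, SE 0.12, adjusted p = 0.000478). Smcp, the mitochondrial capsule protein known for delayed translation, had 403, 392 and 314 against 184, 219 and 171 (log2 −0.95, SE 0.14, adjusted p = 0.00105), and Spata18 198, 201 and 239 against 52.5, 64.9 and 63.4 (log2 −1.82). Odf1 was lower (−0.88) and Spata19 (1.14), Odf4 (0.58) and Odf3 (0.48, with the call lost after quantile normalization and when rescaled) were higher, while Oaz3 (−0.21) and Spem1 (−0.08) did not pass. Against the median of its own bin of coding length, Smcp (429 nt) was at −1.56 and Prm2 at −1.10. Other members lay above the median of their own bin, 3 of the 8 packaging genes and 4 of these 10.

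Among 10 fibrous sheath genes 1 was higher and 4 lower (median −0.40). Besides Fsip2, Akap3 (−0.50), Cabyr (−0.48) and Ropn1l (−0.41) were lower and Ropn1 higher (0.47), whereas Akap4, the main protein of the sheath, had 451, 534 and 517 FPKM against 372, 275 and 475 and did not pass (log2 −0.45, adjusted p = 0.0856). With centred libraries the calls of Akap3 and Ropn1l were lost, and that of Ropn1 was lost after quantile normalization and when rescaled. Of the 7 germline glycolytic and lactate enzymes, 1 passed, Aldoart2 (−0.39), which did not pass with centred libraries. Ldhc, the sperm lactate dehydrogenase, had 3215, 3346 and 3057 FPKM in the input and 4804, 3389 and 4638 in polysomes (log2 0.40, adjusted p = 0.0661).

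Acrosome genes were higher in 8 of 23 and lower in 3 (median 0.23). Spink2, an inhibitor of acrosomal proteases, had 753, 772 and 587 FPKM against 2422, 2024 and 1821 (log2 1.57, SE 0.16, adjusted p = 0.000157), followed by the lysozyme-like Lyzl4 (1.15) and Lyzl6 (1.15). Zp3r (−0.82), Dpy19l2 (−0.70) and Zpbp (−0.40) were lower. Serine proteases of the Prss family were higher in 11 of 23 and lower in 1 (median 0.49), and testis-specific serine kinases higher in 3 of 6 (Tssk1 0.52, Tssk4 0.50, Tssk2 0.45) and lower in 1 (Tssk5, −1.78). Rescaled without CT010467.1, Tssk2, Tssk4 and Catsper3 did not pass, nor did Tssk2 after quantile normalization, and with centred libraries Zpbp and Catsper1 did not pass. Part of the 11 higher Prss genes also lost the call when rescaled (log2 0.27 to 0.36). Of 10 CatSper channel genes, the small subunits Catsperz (1.08), Efcab9 (0.90) and Catsper3 (0.51) were higher, and 6 were lower, from Catsper1 (−0.53) down to −1.56 for the large auxiliary subunit Catsperg1, which has a near-identical copy in Catsperg2. Catsperz shares exons with Kcnk4 and is uncertain.

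Of 14 axonemal dynein heavy chains, all with coding sequences of 11880 nt (Dnah12) or more, 12 were lower and 0 higher (median −2.71). Their share of the summed FPKM was 0.0752% to 0.106% in RNA-seq and 0.00939% to 0.0142% in RNC-seq. Dnah8 (chromosome 17, 30624354 to 30877365), the sperm outer arm heavy chain gamma, had 47.8, 55.8 and 64.9 FPKM against 5.56, 5.94 and 8.82 (log2 −3.05, SE 0.20, adjusted p = 4.20e-05). Dnah7a was the least lowered of the 12 (−0.66), but its paralogs Dnah7b (−2.44) and Dnah7c (−2.21) are near-identical to it. The members that did not pass, Dnah5 and Dnah9, had a mean below 0.6 FPKM in both assays. With the median of the longest bin of coding length taken off, the class was at −1.49. That bin ran from 3414 to 25434 nt with a median length of 4536 nt, against 13068 nt for this class. The step therefore did not take off the length of these genes.

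Cilia and flagella associated proteins were lower in 17 of 26 and higher in 3 (median −0.62), from Cfap65 at 115, 134 and 125 FPKM against 27.4, 26.5 and 34.1 (log2 −2.09) to Cfap126 at 0.62. Intraflagellar transport and BBSome genes were lower in 9 of 22 and higher in 3, with Ift80 (−1.65), Ift140 (−1.35) and Ift122 (−1.33) against the small subunits Ift43 (1.15), Ift20 (0.59) and Ift22 (0.50). The calls of Ift20 and Ift22 were lost when rescaled without CT010467.1. Kinesins were lower in 22 of 35 and higher in 0 (median −0.67). These 3 classes lay near the medians of their coding-length bins, at −0.15, −0.10 and 0.03.

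Of 33 germline RNA-binding regulators of translation, 13 were lower and 1, Prkra (1.22), higher, with a median of −0.49. Pabpc1, the cytoplasmic poly(A)-binding protein, had 258, 267 and 274 FPKM in the input and 133, 134 and 160 in polysomes (log2 −0.91, SE 0.12, adjusted p = 0.000469), and Ythdc1 (−1.78) and Cpeb3 (−1.47) were lower by more. Igf2bp3, the gene whose dose defines the groups, had 38.2, 38.6 and 33.4 FPKM against 40.1, 31.4 and 43.0 (log2 0.05, adjusted p = 0.830), and Ybx2, a protein that stores spermatid mRNAs, 59.2, 67.3 and 55.0 against 42.9, 55.4 and 55.0 (log2 −0.25, adjusted p = 0.198). In both genes the assays overlapped. Of 17 piRNA pathway and Tudor genes 9 were lower and 2 higher. Tdrd6, a chromatoid body scaffold with a coding sequence of 6405 nt, had 157, 183 and 187 FPKM against 28, 31.2 and 38.0 (log2 −2.44, SE 0.15, adjusted p = 4.06e-05), and Ddx4, the germ cell helicase, 266, 260 and 257 against 103, 80.3 and 125 (log2 −1.37), whereas the small Gtsf1 (0.95) and Pld6 (0.95) were higher. DEAD and DEAH box helicases were lower in 29 of 52 and higher in 0 (median −0.62). With the median of each gene's coding-length bin taken off, RNA-binding regulators were at −0.25, piRNA and Tudor genes at 0.15 and these helicases at 0.0057.

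Chromatin regulators were low as well. Chromatin remodelers and bromodomain proteins were lower in 31 of 45 and higher in 1, Smarcb1 (0.37, not past the limit when rescaled), with a median of −1.38 (−0.85 with a pseudocount of 1). Chd5, the remodeler known for histone eviction in spermatids, had 24.8, 22.2 and 23.0 FPKM in RNA-seq and 3.98, 5.02 and 5.27 in RNC-seq (log2 −2.28, SE 0.15, adjusted p = 4.51e-05). Histone-modifying enzymes were lower in 32 of 63 and higher in 3 (median −0.69), from Ep300 (−2.34) to Sirt4 (0.83) and Hdac5 (0.98). Deubiquitinating enzymes were lower in 39 of 58 (median −0.89, and −0.57 with a pseudocount of 1) and nuclear pore and transport receptor genes in 21 of 42 (median −0.81), with Usp9x (−2.36) and Nup210l (−1.98) lowest and Uchl3 (1.24, with a near-identical copy in Uchl4) and Nup37 (1.08) highest. With the median of each gene's coding-length bin taken off, these 4 medians, in this order, were −0.24, −0.09, −0.29 and 0.00, whereas ribosomal proteins stayed at 0.68, nuclear respiratory genes at 0.64 and mitochondrial ribosomal proteins at 0.35.

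Of 66 splicing factors, 12 were higher (18.2%, near the 18.6% of all genes) and 29 lower (43.9%, against 25.1%). The small core proteins Snrpe (1.84), Snrpg (1.67) and Snrpf (1.53) were highest, and Srsf6 (−2.19) and Prpf8 (−1.96), the largest spliceosome protein, were among the lowest. Of 18 synaptonemal complex and recombination genes, 6 were higher, among them Spo11 (1.46), Tex12 (1.20) and Syce3 (1.07), and 7 lower, among them Sycp2 (−1.48) and Smc1b (−1.32). Of 14 spermatid transcription regulators, Creb3l4 (0.71), Crem (0.55) and Tbpl1 (0.55) were higher and 4 were lower, Rfx2 (−1.27) and Sox30 (−0.95) among them, which is 21.4% and 28.6% and near the 18.6% and 25.1% of all genes. The calls of Crem and Tbpl1 were lost after quantile normalization, and that of Crem also when rescaled without CT010467.1. Zfp zinc finger genes were higher in 17 of 251 and lower in 72 (28.7%, near the share of all genes). Only 26 of 61 replication-dependent histone genes passed the filter, 11 of them higher and 2 lower, and 18 of the 26 have near-identical copies. What poly(A) selection contributed to these counts was not tested.

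By gene type, lincRNAs were higher in 451 of 1471 and lower in 122 (median 0.42), antisense RNAs in 261 and 92 of 926 (0.28), and processed pseudogenes in 303 and 145 of 1238 (0.27), whereas protein-coding genes were higher in 1948 and lower in 3869 of 12485 (−0.23). With the median of each gene's transcript-length bin (50 bins) taken off, these medians, in this order, were 0.080, −0.012, −0.18 and 0.012. Gm48051 (−4.60) and Gm26917 (−3.97) were among the lowest of the non-coding genes, and Gm26917 fell from 39.9, 43.0 and 47.6 FPKM to 2.29, 2.42 and 3.46. Malat1, a long RNA kept in the nucleus, had 9.93, 8.88 and 7.36 FPKM in the input and 1.94, 1.65 and 3.79 in polysomes (log2 −1.86, SE 0.29, adjusted p = 0.00118). Among 11 host genes of small nucleolar RNAs, Snhg6 (1.58), Snhg8 (1.57), Snhg3 (1.53) and Gas5 (0.73) were higher, and Snhg9 (−1.23) lower. The size of the difference of Gm29050 (3.58) rests on 1 library, at 7.38, 190 and 12.9 FPKM in RNC-seq against 1.46 to 2.86 in RNA-seq. The assays did not overlap, and its call was lost without RNA-seq replicate 1. Genes annotated on chromosome Y were higher in 95 of 270 and lower in 9 (median 0.86), many of them members of near-identical families. Their median RNA-seq level was low, at 0.56 FPKM. With RNC-seq replicates 1, 2 and 3 each set against the mean input, the chromosome Y median was 1.27, 0.33 and 0.94, and against the transcript-length bin it was 0.17. Genes on chromosome X were higher in 127 (20.5%, near the 18.6% of all genes) and lower in 84 (13.6%, against 25.1%) of 619. Their median of 0.15 became −0.02 when FPKM was rescaled without CT010467.1.

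The Igf2bp3-/- libraries, which share no sample with the control, gave fewer calls. There, 1872 of 18456 genes were higher (10.1%) and 2008 lower (10.9%). Of the genes higher in control polysomes and tested in both genotypes, 3297 of 3329 (99.0%) were on the same side of 0 in Igf2bp3-/- and 1617 passed there, and of the lower ones 4326 of 4466 (96.9%) and 1783. Over all genes tested in both, 45.7% lay above 0 in control and 48.2% in Igf2bp3-/-. No gene called in control was called in the other direction. Pearson's r of loading between the genotypes was 0.835 over 17408 genes; genes of 1 library set are not independent of each other. The interaction of genotype and assay passed the test in 1 of 18414 genes (0.00543%), with 1312 at an unadjusted p under 0.05. Median loading in Igf2bp3-/- was 0.78 for ribosomal proteins, 0.91 for nuclear respiratory genes and −1.89 for dynein heavy chains, and 0.54 and −0.75 for the shortest and longest bins of coding length, and the difference of these medians between genotypes was not tested.

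**Figure D5:**
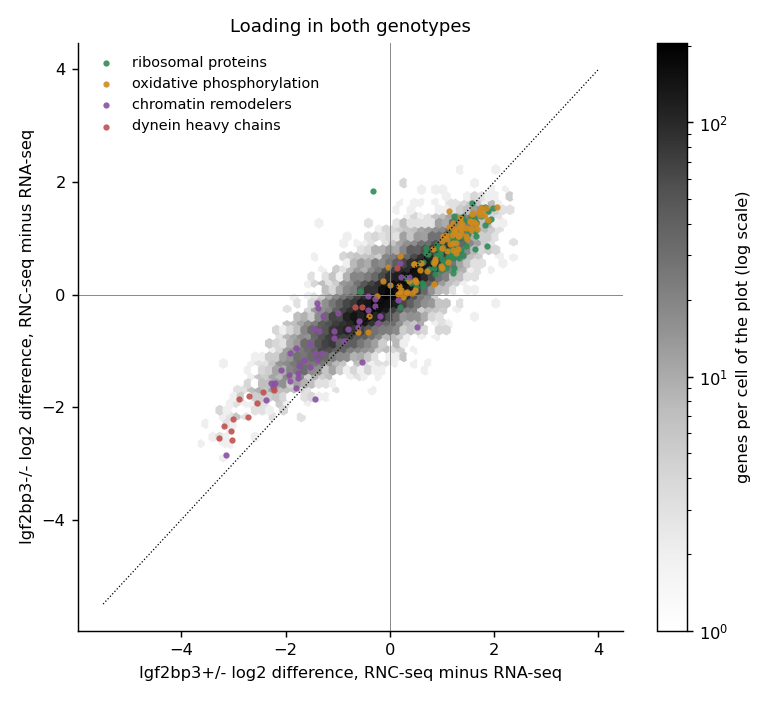
Loading in Igf2bp3-/- (vertical) against loading in Igf2bp3+/- (horizontal), in log2, for 17408 genes tested in both; grey shows the number of genes per cell of the plot and colors mark members of 4 classes. The genes follow the diagonal (dotted) with r = 0.835, ribosomal and respiratory genes at the upper right and dynein heavy chains at the lower left.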

How the data were processed

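The authors deposited 1 table of FPKM, a gene symbol and 12 library columns, as their normalized unit. The submitters' processing notes name Trim Galore 0.6.6, HISAT2 and StringTie 2.1.7 and the build GRCm38. The annotation release and the use of strand are not given in the sources used here, and the labels and the methods name different library kits and instruments. The file holds no counts, so depth is known only as a ratio between libraries, read from the smallest FPKM steps, and no counting interval was computed.

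Of 28668 symbols, 25 had become dates in a spreadsheet (0.0995% of FPKM) and were left out. The others were matched by symbol to GENCODE M21, 27798 with success. Lengths are those of the protein-coding transcript with the longest coding sequence. Near-identical copies were found with BLAST 2.17.0 (95% identity over 50% of the transcript) and shared exons with bedtools 2.31.1. Values were log2(FPKM + 0.1), a scale that understates changes of low genes. RNC-seq and RNA-seq were compared with limma 3.58.1 in R 4.3.3 with a variance trend. The methods describe sorting cells from each mouse, the labels do not tie libraries to animals, and p-values measure the spread between these samples. On simulated data with the same 17942 genes, 100 genes were given a 2-fold and 100 a 4-fold change. Of these 30% and 70% were called, with 5 of 17742 unchanged genes. Far more genes were called in the real data, so the adjusted limit was stricter in the simulation and these rates need not hold for the real comparison.

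The members, the gene lists and the rule for named genes were chosen with earlier results of these data known. The rule names all members of lists with up to 13 measured genes, the 3 highest and 3 lowest of longer lists with 1 FPKM or more, and the 10 (coding) or 5 (non-coding) largest changes each way with 5 FPKM or more in the higher assay, a call and no overlap. Only part of the genes it allows are described, and some named members of long lists (Pabpc1, Dnah5, Dnah9, Dnah12, Rpl36, Rpl36a, Rpl39 and Rps4x) lie outside it and were chosen after their values were seen. Fold changes and p-values of the study were not used.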

Additional observations from a re-analysis of the deposited data

Results flagged for a closer look

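Gm45062 was the 1 gene whose loading differed between genotypes by the interaction test of limma (log2 3.78, SE 0.42, adjusted p = 0.00714), a size that depends on the pseudocount of 0.1. It had 1.04, 0.866 and 1.33 FPKM in Igf2bp3+/- RNA-seq while all 3 RNC-seq libraries of that genotype list it at 0, and it had 0.599, 1.27 and 1.14 FPKM in Igf2bp3-/- RNA-seq and 1.43, 0.993 and 1.07 in RNC-seq. Its exons lie wholly within those of Glcci1 on the same strand, so that how reads were divided between these genes is not known, and with a pseudocount of 1 or with the replicate block it did not pass.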

How the results depend on the processing

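The files hold no counts, so what depth limits could be read only for low FPKM. With a 2-fold minimum, 1578 genes were higher and 2662 lower. Leaving out 1 library gave 2395 to 3820 higher and 3476 to 4358 lower genes. Deviations of same-numbered libraries from their assay means had r of 0.0872, −0.0477 and 0.0964. With 3 libraries per assay, these values cannot tell whether libraries of the same number share an extract. With a replicate block 3339 genes were higher and 4339 lower. The genotype difference passed in 0 genes with the replicate block and 0 with a pseudocount of 1, where limma had found 1. Medians of cytosolic ribosomal proteins and nuclear respiratory genes were 1.35 and 1.30 with centred libraries, 1.02 and 1.00 after quantile normalization, 0.96 and 0.91 when rescaled without CT010467.1, 0.68 and 0.64 against their coding-length bin, 0.70 and 0.68 against their transcript-length bin (50 bins, an alternative chosen after seeing the data), and 0.78 and 0.91 in Igf2bp3-/-. Packaging genes were at 0.032, 0.29, −0.10, −0.14 and 0.74 in the last 5 of these settings. Against the coding-length bin, the transcript-length bin and in Igf2bp3-/-, dynein heavy chains were at −1.49, −1.63 and −1.89, remodelers at −0.24, −0.48 and −0.83, and deubiquitinating enzymes at −0.29, −0.33 and −0.56. Mitochondrially encoded genes were at 1.52 against the transcript-length bin and 1.67 in Igf2bp3-/-, and lincRNAs at 0.080 against the transcript-length bin. Remodelers were at −0.85 with a pseudocount of 1, −1.17 with FPKM above 1, −1.19 after quantile normalization and −1.57 when rescaled, and deubiquitinating enzymes at −0.57 with a pseudocount of 1 and −1.11 when rescaled. Leaving out 1 library moved ribosomal proteins from 1.04 to 1.25, respiratory genes from 1.00 to 1.23, mitochondrially encoded genes from 1.42 to 2.40 and remodelers from −1.40 to −1.22. The gap over coding length, 1.82, was 1.27 with a pseudocount of 1 and 1.41 for genes with 1 annotated transcript (chosen after seeing the data). The log2 change of Tnp2 turned to −0.039 after quantile normalization. The log2 change of Igf2bp3 turned to −0.18 when rescaled, −0.02 without RNA-seq replicate 3 and −0.046 without RNC-seq replicate 3, in a range of −0.046 to 0.18 over the libraries left out. Of 631 values recomputed for 40 named genes, 602 kept direction and side of the limit, 24 lost the call (Prm1, Prm2, Tnp2, mt-Atp8 and Gm29050), 1 gained it (Ybx2, −0.47 when rescaled) and 4 changed sign. The causes were not tested.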

Other observations

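Some mRNAs stood apart from the length trend. They were chosen after their values were seen, among genes with 20 FPKM or more in the higher assay and no overlap between assays or with other genes over more than 5% of their exons. Of 3742 genes in the 3 shortest of the 10 bins of coding length, 382 were lower in RNC-seq by limma. By bin these were 5.45%, 10.5% and 14.7%, below the 25.1% of all genes. Atp1b3, the beta-3 subunit of the sodium pump (834 nt), had 180, 187 and 191 FPKM in the input and 40.3, 39.7 and 48.0 in polysomes (log2 −2.13, SE 0.12, adjusted p = 4.06e-05). Arl4a, a small GTPase of the germ line (600 nt), had 467, 438 and 410 against 145, 129 and 143 (−1.66), and Trp53inp2, an autophagy adaptor (663 nt), had 78.1, 68.2 and 70.4 against 11.8, 16.5 and 15.5 (−2.31). All 3 were also lower in Igf2bp3-/- (−1.32, −1.35 and −1.09).

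Of 3743 genes in the 3 longest bins, 96 were higher, by bin 3.29%, 2.25% and 2.16% against 18.6% of all genes. Fam186a (9105 nt) had 20.6, 22.4 and 20.5 FPKM in the input and 83.9, 63.7 and 62.9 in polysomes (log2 1.71, SE 0.14, adjusted p = 8.01e-05), Fmn1, a formin (4398 nt), 49.3, 61.6 and 33.2 against 178, 118 and 131 (1.59), and Map4k1, a kinase (2481 nt), 39.5, 37.7 and 27.7 against 131, 112 and 95.1 (1.69). Naca, the nascent chain binding subunit alpha, was higher by 1.18, but its coding length of 6561 nt belongs to the longest of its annotated isoforms. In Igf2bp3-/- the first 3 were at 1.43, 1.43 and 1.34. Which isoforms these libraries held was not tested.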
